A study of Mus musculus with 12 samples.

Results

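Microglia are the resident macrophages of the retina, and in healthy tissue they express a characteristic set of surface receptors, some of which they share with other macrophages. The 9 homeostatic microglia genes described here are *P2ry12*, *P2ry13*, *Gpr34*, *Cx3cr1*, *Csf1r*, *Tmem119*, *Siglech*, *Sall1* and *Aif1*. They were chosen by symbol, as a resting microglia signature, from the 50559 genes of a table of read counts, and all 9 had counts in every library. The table holds 12 whole retina RNA-Seq libraries, 3 for each of 4 groups of WT C57BL6/J mice taken at day 28. All pups received 30 µg of antibody at day 1. The IgG group received an isotype control antibody, and the APB5 group received the rat monoclonal antibody APB5 against mouse PDGFRβ, the receptor that pericytes need to be recruited to growing vessels. The IgG+Mino and APB5+Mino groups were given the same antibodies and then minocycline, a tetracycline that reaches the CNS and dampens microglia reactivity, at 45 mg/kg by daily intraperitoneal injection from day 5 to day 27. The questions for these genes were whether their level differed with minocycline, and whether that difference depended on APB5.

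The members fall into roles. CX3CR1 is the receptor for the neuronal chemokine CX3CL1, and CSF1R is the receptor for CSF1 and IL-34, on which microglia depend for survival. P2RY12 and P2RY13 are receptors for ADP that guide microglial processes to damaged cells, and GPR34 is a receptor for lysophosphatidylserine. TMEM119 is a membrane protein used as a microglia marker, and Siglec-H is a sialic acid binding lectin that is also found on plasmacytoid dendritic cells. SALL1 is a transcription factor that maintains microglial identity, and AIF1, better known as IBA1, is a calcium binding protein of the actin cytoskeleton that all macrophages express. When microglia become reactive, the purinergic receptors, *Tmem119*, *Cx3cr1* and *Sall1* typically decline, whereas IBA1 is retained or increases. In bulk retina, fewer microglia and less RNA of a gene per microglial cell cannot be told apart.

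The promoters of 4 members show how the genes differ in sequence. They are the 250 bases before the start of the Ensembl canonical transcript in GRCm39 with the GENCODE annotation, written 5′ to 3′ on the strand of the gene. *Cx3cr1* is shown because it had the largest difference with minocycline in APB5-treated mice, *Siglech* because it had the smallest one there, and the neighbors *P2ry12* and *P2ry13* because they lie side by side on chromosome 3 and had unlike promoters. Capitals mark matches, on either strand, to GAGGAA (core of the PU.1 site), TGTGGT (RUNX) and TGANTCA (AP-1), motifs of factors active in myeloid cells.
Cx3cr1: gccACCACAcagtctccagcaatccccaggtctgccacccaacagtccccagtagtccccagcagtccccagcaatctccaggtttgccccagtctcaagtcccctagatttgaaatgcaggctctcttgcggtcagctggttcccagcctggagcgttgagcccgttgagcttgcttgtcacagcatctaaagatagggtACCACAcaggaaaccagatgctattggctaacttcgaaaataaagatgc
Siglech: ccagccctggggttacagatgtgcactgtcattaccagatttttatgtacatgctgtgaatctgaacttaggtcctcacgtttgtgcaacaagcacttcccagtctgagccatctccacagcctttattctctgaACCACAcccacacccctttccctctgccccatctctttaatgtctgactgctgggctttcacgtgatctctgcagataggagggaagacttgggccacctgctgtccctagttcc
P2ry12: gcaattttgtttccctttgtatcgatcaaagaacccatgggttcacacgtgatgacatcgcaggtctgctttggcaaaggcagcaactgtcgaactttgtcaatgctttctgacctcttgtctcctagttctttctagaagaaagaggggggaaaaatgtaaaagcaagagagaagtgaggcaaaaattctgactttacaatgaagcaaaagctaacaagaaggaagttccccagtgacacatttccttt
P2ry13: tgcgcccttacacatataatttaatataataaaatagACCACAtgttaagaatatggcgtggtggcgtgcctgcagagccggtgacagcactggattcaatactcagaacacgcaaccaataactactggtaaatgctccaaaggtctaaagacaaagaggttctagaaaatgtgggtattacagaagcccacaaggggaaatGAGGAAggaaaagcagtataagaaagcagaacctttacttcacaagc
The windows lie on the minus strand at chr9:119897368-119897617 (*Cx3cr1*), chr3:59170430-59170679 (*P2ry12*) and chr3:59118305-59118554 (*P2ry13*), and on the plus strand at chr7:55417682-55417931 (*Siglech*). *Cx3cr1* held RUNX matches whose first base lay at −247 and −49, counting the base before the transcript start as −1. *Siglech* held 1 at −115, and *P2ry13* held 1 RUNX match at −213 and 1 PU.1 match at −47. The *P2ry12* window held none of the 3 motifs. Over all 9 members, 4 promoters held the RUNX letters, against 2835 of 21757 protein-coding promoters of this length. The PU.1 letters were in 2 of 9 member promoters and in 22.9% of all, and the AP-1 letters were in 1 of 9 and in 6.18% of all. *Sall1* alone had a CpG-rich window, with 25 CpG dinucleotides where the others had 0 to 5, and the median over all promoters was 8. A match describes letters and not binding.

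Total counts were 52740545 to 59411044 per library, and 26897 to 28479 genes had at least 1 count. Values are given as CPM, the count per 1e6 reads of a library scaled by TMM, so that 1 count was worth 0.0152 to 0.0195 CPM. The libraries differed in a pair of ways that touch the results. APB5 replicate 3 stood apart, at 126.9 on the first principal component, where the other 11 libraries lay between −53.8 and 25.6. Its summed rod photoreceptor transcripts were 14230 CPM, whereas the other libraries had 52430 to 80010 CPM. In addition, the female-specific transcript *Xist* had at least 47210 counts in 5 libraries and at most 38 in the other 7, and the summed Y-linked counts (*Eif2s3y*, *Kdm5d*, *Uty* and *Ddx3y*) did not pass 6 in the *Xist*-high libraries and reached 9336 or more in the *Xist*-low ones. *Xist* was high in 3 of 3 IgG libraries, 0 of 3 IgG+Mino libraries, replicate 3 of APB5 and replicate 3 of APB5+Mino. Hence minocycline and sex cannot be told apart between IgG+Mino and IgG. *Pdgfrb*, which encodes the target of the antibody, was measured at 15.5 ± 3.97 CPM in IgG and 23.4 ± 13.2 CPM in APB5 (SD, n = 3 each). The antibody binds the protein, so its mRNA does not check the treatment.

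Per kilobase of the canonical transcript, *Csf1r* was the most abundant member in all 4 groups, with 1.66 ± 0.515 CPM per kb in IgG (SD, n = 3). *Tmem119*, *Cx3cr1*, *Siglech* and *P2ry12* followed in IgG at 0.917 ± 0.469, 0.883 ± 0.391, 0.883 ± 0.0382 and 0.751 ± 0.312 CPM per kb, and these 4 did not differ beyond their spread. *Gpr34* at 0.258 ± 0.155, *Aif1* at 0.192 ± 0.0800, *Sall1* at 0.165 ± 0.0322 and *P2ry13* at 0.142 ± 0.126 CPM per kb formed a lower set that also overlapped. The lengths were those of GENCODE canonical transcripts, 3425 bases for *Aif1*, whereas the counts used the NCBI annotation. A member's place therefore depends on the transcript chosen. In APB5+Mino *Siglech* held rank 2, against rank 4 in IgG. *Cx3cr1* held rank 6 there, at 0.0812 ± 0.0437 CPM per kb, where it held rank 3 in IgG and in APB5 and rank 5 in IgG+Mino.

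In APB5-treated mice, 1 homeostatic member, *Cx3cr1*, was called lower with minocycline, and this call was lost when libraries were paired by replicate number. All 8 members that passed the count filter were lower in APB5+Mino than in APB5, with log2 fold changes from −3.84 to −0.33 and a median of −1.88, whereas the median over all 20281 genes tested was −0.02. In 7 of the 8, every APB5+Mino library lay below every APB5 library, which was true of 23.3% of all genes tested. A gene was called when its level differed at least 2-fold and its p, by the quasi-likelihood test of edgeR after Benjamini-Hochberg adjustment, was no higher than 0.05. By this rule 1 member, *Cx3cr1*, was called lower, and 0.819% of all genes were. Libraries of the same replicate number deviated together weakly in this comparison, with correlations of 0.134 to 0.182. Replicate 3 was the *Xist*-high library of both groups, so pairing and sex cannot be told apart there. With the number as a block 0 members and 0 genes were called, in a fit that estimates more terms from the same libraries. The unadjusted p was under 0.05 in 7 of the 8 and in 7282 of the 20281 genes. The members are described in turn by role.

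*Cx3cr1* (chr9:119877749-119898945, minus strand) had 155, 158 and 577 counts in the APB5 libraries and 14, 9 and 26 counts in the APB5+Mino libraries. This corresponded to 2.80, 2.88 and 8.77 CPM against 0.250, 0.175 and 0.490 CPM. All 3 APB5+Mino libraries were thus far below the lowest APB5 library. They were also below all IgG libraries (149, 133 and 290 counts) and all IgG+Mino libraries (65, 119 and 74 counts). The log2 fold change against APB5 was −3.84 ± 0.64 (SE), a 14.3-fold lower fitted level, with an adjusted p of 0.0447 in edgeR. With the replicate block it was −3.74 ± 0.28, with an adjusted p of 0.0641 in edgeR. *Cx3cr1* was lower by 13.4-fold between the libraries low in *Xist* (2 against 2) and by 17.9-fold between those high in it (1 against 1).

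*Csf1r* (chr18:61229714-61266535, plus strand), which had the highest counts of the set, measured 9.50, 8.57 and 40.2 CPM in APB5 and 4.73, 3.88 and 5.01 CPM in APB5+Mino. The groups did not overlap, and the APB5 mean was carried by replicate 3. The log2 fold change of −2.10 ± 0.61 had an adjusted p of 0.0692 in edgeR. Within *Xist*-low libraries the difference was 2.10-fold, and between the *Xist*-high libraries it was 8.03-fold. In the annotation, exons of *Csf1r* share 1461 of 7361 bases with *Hmgxb3* on the opposite strand. Whether the counting used strand was not stated, so reads of these overlaps cannot be assigned with certainty.

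The ADP receptor *P2ry12* (chr3:59123682-59170429, minus strand) had 78, 67 and 112 counts in APB5. With minocycline it had 28, 12 and 45 counts, so again no library overlapped. Its 3 APB5 values were close together, and replicate 3 was 1.29 times the mean of replicates 1 and 2. The log2 fold change was −1.40 ± 0.45 (adjusted p = 0.0768, edgeR).

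Its neighbor *P2ry13* (chr3:59114539-59118304, minus strand) was the sparsest member, with 29, 4 and 26 counts in APB5 and 5, 2 and 4 counts in APB5+Mino. It did not pass the count filter in this comparison, and APB5 replicate 2 lay within the APB5+Mino range. Both genes sit inside *Med12l*, which is transcribed from the opposite strand and shares 294 of 3206 exonic bases with *P2ry12* and 0 with *P2ry13*. *Gpr34* (chrX:13489625-13507116, plus strand), inside *Cask*, had 17, 11 and 42 counts in APB5 and 6, 4 and 10 counts in APB5+Mino. The groups did not overlap, but they were separated by 1 count. Its log2 fold change was −1.40 ± 0.58 (adjusted p = 0.0978, edgeR).

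*Tmem119* (chr5:113931781-113938577, minus strand) measured 1.55, 1.61 and 9.36 CPM in APB5 and 0.803, 0.897 and 0.734 CPM in APB5+Mino. The APB5+Mino libraries were tightly grouped, with an SD of 0.0816 CPM, and did not overlap with APB5. The log2 fold change was −2.32 ± 0.75 (adjusted p = 0.0789, edgeR), and it was 1.86-fold in the *Xist*-low libraries. *Siglech* (chr7:55417926-55429195, plus strand) was the exception. It had 46, 67 and 92 counts in APB5 and 56, 49 and 41 counts in APB5+Mino, so the groups overlapped. Its log2 fold change was −0.33 ± 0.29 (adjusted p = 0.406, edgeR).

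The transcription factor *Sall1* (chr8:89753863-89770823, minus strand), which shares 678 of 6815 exonic bases with *Gm3134* on the opposite strand, had 49, 89 and 135 counts in APB5 and 30, 26 and 18 counts in APB5+Mino. No library overlapped, and the log2 fold change of −1.66 ± 0.39 had an adjusted p of 0.0510 in edgeR. *Aif1* (chr17:35387384-35395053, minus strand), which shares 703 of 4236 exonic bases with *Gm17705* on the opposite strand, had 46, 33 and 358 counts in APB5 and 13, 19 and 6 counts in APB5+Mino. Here the APB5 mean rested on replicate 3, which was 7.60 times the mean of the other APB5 libraries. The log2 fold change was −3.10 ± 0.98 (adjusted p = 0.0710, edgeR). Between the *Xist*-low libraries *Aif1* was 2.38-fold lower, and between the *Xist*-high libraries 48.2-fold lower.

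**Figure D1:**
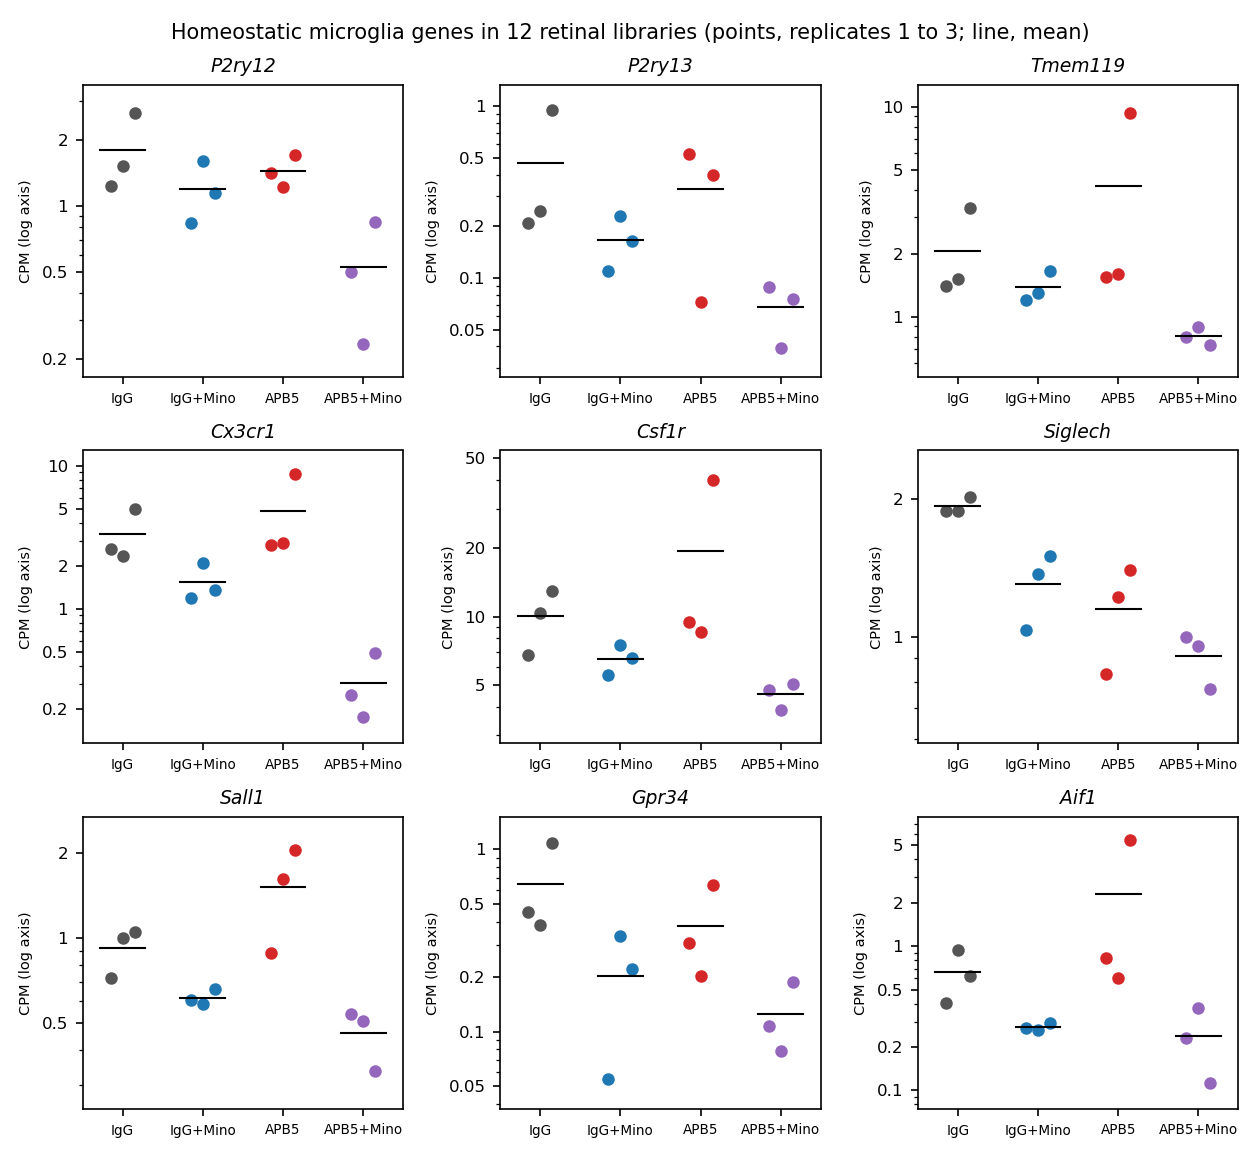
CPM of each homeostatic microglia gene (log y axis, scaled separately per gene) in the 3 libraries of each group, with a line at the group mean. *Cx3cr1* in APB5+Mino sits between 0.175 and 0.490 CPM, below every library of the other groups, and APB5 replicate 3 stands far above its group for *Aif1*, *Tmem119* and *Csf1r*.

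The size of these differences depended on single libraries. APB5 replicate 3 exceeded the mean of APB5 replicates 1 and 2 for all 9 members, by 7.60-fold for *Aif1*, 5.93-fold for *Tmem119*, 4.45-fold for *Csf1r*, 3.09-fold for *Cx3cr1* and 2.51-fold for *Gpr34*, but by only 1.29-fold to 1.64-fold for *P2ry12*, *P2ry13*, *Siglech* and *Sall1*. Without it, the median log2 fold change of the members moved from −1.88 to −1.13. *Cx3cr1* (−3.08, adjusted p = 0.00128), *Aif1* (−1.46, adjusted p = 0.0367) and *Sall1* (−1.38, adjusted p = 0.0198) were then called by edgeR. The call of *Cx3cr1* was lost without APB5 replicate 1 (adjusted p = 0.105) and without APB5+Mino replicate 1, 2 or 3 (adjusted p = 0.117, 0.214 and 0.205, edgeR), while its log2 fold change stayed between −4.29 and −3.08 in all 6 such fits. With DESeq2, with voom and with a fit of all 12 libraries, 6 members were called lower in each: *Cx3cr1*, *Csf1r*, *P2ry12*, *Tmem119*, *Sall1* and *Aif1*. DESeq2 and voom also called far more genes of the whole table than edgeR did, as counted in the closing section. For the fit of all 12 libraries and the fit without APB5 replicate 3, the share of all genes called is not given here. *Siglech* was called under none of the alternatives, and *Gpr34* only at an unadjusted p.

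**Figure D2:**
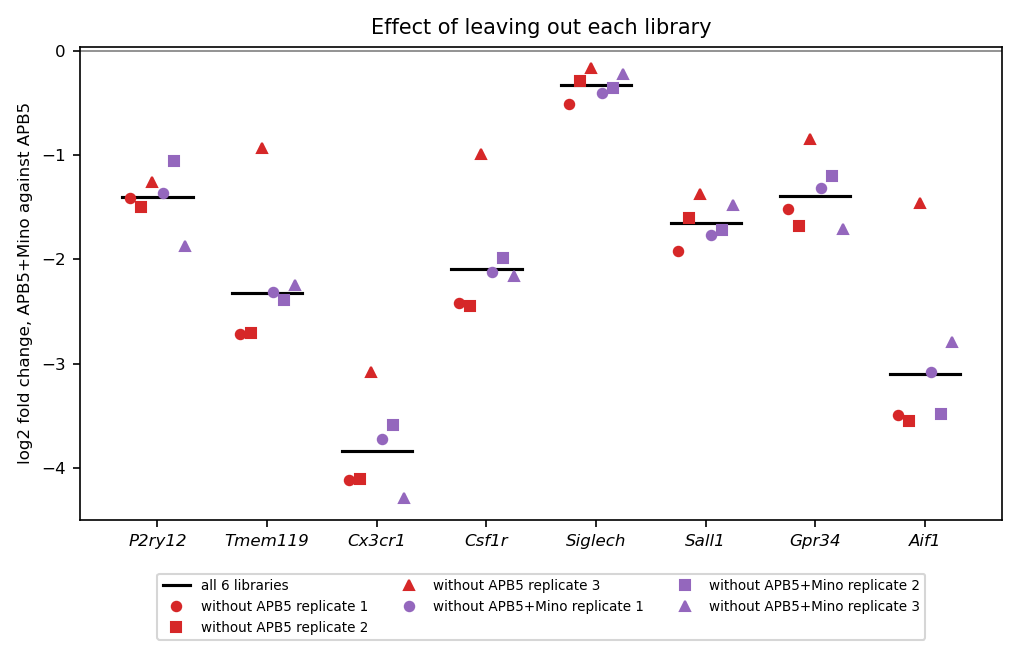
Log2 fold change of APB5+Mino against APB5 for the 8 members tested (y axis, edgeR), with all 6 libraries (black line) and with each library left out (symbols). All values are below 0, and leaving out APB5 replicate 3 (red triangle) brings *Aif1* to −1.46, *Tmem119* to −0.93 and *Csf1r* to −0.99, whereas *Cx3cr1* stays at −3.08.

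In mice that received IgG, all 9 members were tested and all 9 had lower means with minocycline, by a log2 fold change of −1.50 to −0.54 with a median of −0.61. The median over all 20143 genes tested was −0.01. None of the members was called by edgeR's quasi-likelihood test, DESeq2 or voom, and 0.00993% of all genes were called lower by edgeR. The unadjusted p was under 0.05 for 6 members and for 1686 of the 20143 genes, and the adjusted p-values were 0.585 to 0.639. In 5 members the IgG+Mino libraries all lay below the IgG libraries, where 7.48% of all genes did so.

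*Aif1* was one of these, with 23, 54 and 36 counts in IgG and 15, 15 and 16 counts in IgG+Mino. *Siglech* had 107, 107 and 117 counts in IgG and 57, 78 and 82 counts in IgG+Mino. *Cx3cr1* was next, at 2.61, 2.33 and 5.01 CPM in IgG and 1.18, 2.10 and 1.35 CPM in IgG+Mino, which gave −1.08 ± 0.34 on the log2 scale (adjusted p = 0.585, edgeR). *Sall1* (41, 57 and 61 against 33, 33 and 36 counts) and *Gpr34* (26, 22 and 63 against 3, 19 and 12 counts) completed the 5. For *Csf1r*, *Tmem119*, *P2ry12* and *P2ry13*, the groups overlapped. The 3 IgG libraries were all high in *Xist* and the 3 IgG+Mino libraries all low. With log2 CPM of *Xist* as a further term across the 12 libraries, the median of the 9 members became 0.03, and *Tmem119* (0.71), *Csf1r* (0.55), *Aif1* (0.26), *Cx3cr1* (0.14) and *P2ry12* (0.03) had a positive log2 fold change. That fit takes the *Xist* slope from the APB5 and APB5+Mino groups, where the *Xist*-high libraries include APB5 replicate 3.

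The difference between the minocycline effects with and without APB5 was tested directly as the interaction in a fit of 12 libraries. It was negative, that is, the decrease was larger with APB5, in 7 of 9 members, with a median of −1.09 on the log2 scale where all 21228 genes had −0.02. None of the members was called by edgeR, which called 0.0141% of all genes lower, and 2 members (*Cx3cr1* and *Sall1*) had an unadjusted p under 0.05, as did 3640 of all genes. *Cx3cr1* had the largest difference, −2.75 ± 0.73 (adjusted p = 0.149, edgeR). DESeq2 (adjusted p = 0.00535) and voom (adjusted p = 0.00829) each called *Cx3cr1* and no other member. The differences of *Siglech* (0.22 ± 0.36) and *Gpr34* (0.11 ± 0.94) were positive and smaller than their standard errors. Without APB5 replicate 3 the median of the members was −0.39. The interaction includes IgG+Mino against IgG, where minocycline and sex cannot be told apart. With *Xist* as a covariate 2 members, *Cx3cr1* (−4.04, adjusted p = 0.00986) and *Csf1r* (−2.41, adjusted p = 0.0346), were called by edgeR, and *Gpr34* was −0.80.

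**Figure D3:**
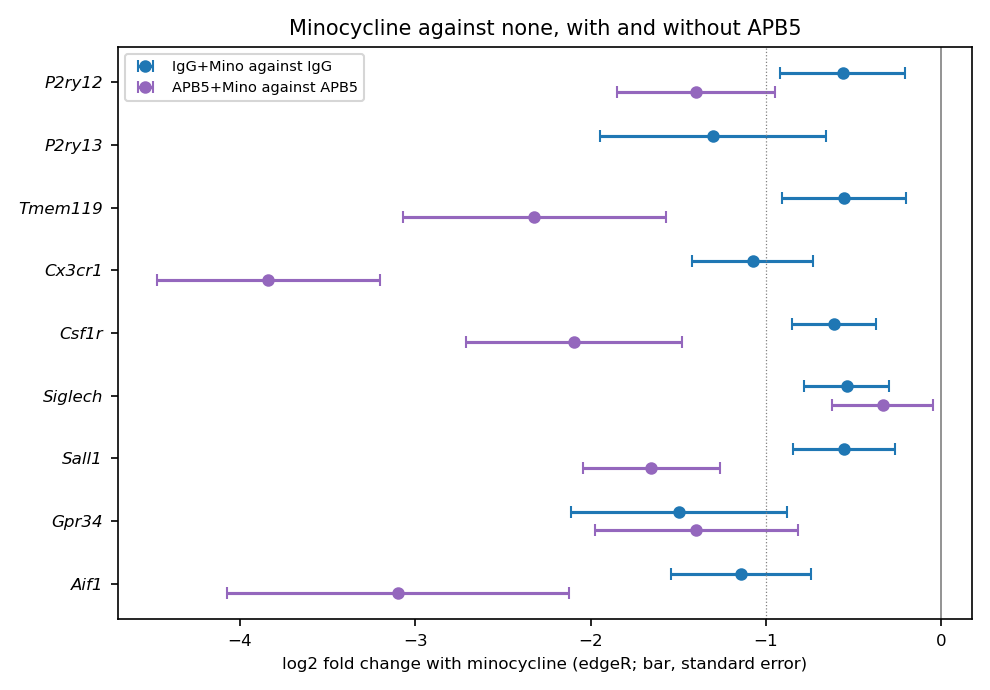
Log2 fold change with minocycline (x axis, edgeR, bars are standard errors) of each member in IgG-treated mice (blue) and APB5-treated mice (purple), with a dotted line at −1. All points lie below 0, the intervals of *Siglech* and *Gpr34* overlap between antibodies, and *Cx3cr1* is at −1.08 without APB5 and −3.84 with it; *P2ry13* was not tested with APB5.

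APB5 alone did not separate from IgG for the set. The means of *Aif1*, *Tmem119*, *Csf1r*, *Sall1* and *Cx3cr1* were higher in APB5 and those of *Siglech*, *Gpr34*, *P2ry13* and *P2ry12* lower, and the median log2 fold change of the 9 was 0.55, against −0.0024 over all genes. No gene in the table was called by edgeR (0% of 20350), and no member by DESeq2 or voom. Among the members only *Siglech* had an unadjusted p under 0.05, as did 1472 of the 20350 genes. *Siglech* was also the only member whose groups did not overlap, as was the case for 7.86% of all genes in this direction. It had 107, 107 and 117 counts in IgG and 46, 67 and 92 counts in APB5, which gave −0.72 ± 0.28 on the log2 scale (adjusted p = 0.664, edgeR). Without APB5 replicate 3 the median of the members was −0.37, and *Csf1r* (−0.15), *Cx3cr1* (−0.22) and *Tmem119* (−0.37) had turned negative. All 3 IgG libraries were high in *Xist*, and replicate 3 was the only such APB5 library. Without it, APB5 and sex cannot be told apart in this comparison. *P2ry12* in turn depended on IgG replicate 3, being −0.30 with it and 0.06 without it.

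Among minocycline-treated mice, which share the APB5+Mino libraries with the comparison against APB5, all 8 members tested were lower in APB5+Mino than in IgG+Mino, with a median log2 fold change of −0.55. *Cx3cr1* was the 1 member called, with 0.349% of all genes called lower. It had 65, 119 and 74 counts in IgG+Mino and 14, 9 and 26 counts in APB5+Mino, which gave −2.21 ± 0.40 on the log2 scale (adjusted p = 0.0182, edgeR). The groups did not overlap in 5 members (*Cx3cr1*, *Tmem119*, *Csf1r*, *Siglech* and *Sall1*), against 17.2% of all genes. The other 4 of these were lower by smaller amounts, from −0.75 for *Tmem119* to −0.39 for *Sall1*. The call of *Cx3cr1* was lost when all 12 libraries were fitted (adjusted p = 0.10) and without IgG+Mino replicate 3 (0.0708) or APB5+Mino replicate 1, 2 or 3 (0.0538, 0.0881 and 0.0839, all adjusted p-values from edgeR). Its log2 fold change was between −2.80 and −1.94 in all alternatives.

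To see which members moved more or less than myeloid genes in general, each was set against 20 pan-myeloid genes, such as *Ptprc*, *Itgam*, *Tyrobp* and *C1qa*, that all microglia and macrophages express. The summed level of this list was 64.7 to 91.4 CPM in IgG, 53.8 to 54.1 CPM in IgG+Mino, 89.6 to 684 CPM in APB5 and 37.2 to 40.3 CPM in APB5+Mino. All 20 were lower in APB5+Mino than in APB5 without overlap, with a median log2 fold change of −2.84, and 0 of 20 were called. Of the 8 members tested, *Cx3cr1* and *Aif1* had log2 fold changes below this median and the other 6 above it. The size of the list median depended on APB5 replicate 3. The mean log2 CPM of the list was 4.25 there, and 1.57 and 1.43 in APB5 replicates 1 and 2. How the members ranked against the list without that library was not tested. Against IgG, all 20 list genes had higher means in APB5, with a median log2 fold change of 1.98 and 0 called. The study also found *Tyrobp* raised in APB5 by qPCR. The list is thus not a fixed baseline, and its change per cell was not tested.

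Relative to the mean log2 CPM of the list, *Siglech* was higher in APB5+Mino than in APB5 by 1.96, *Csf1r* by 0.555 and *Tmem119* by 0.48, each without overlap. With overlap, *Gpr34* (0.962), *P2ry12* (0.722), *P2ry13* (0.711) and *Sall1* (0.672) were also higher, and *Aif1* was lower by 0.251. These are differences on the log2 scale of 3 against 3 libraries, where a two-sided exact permutation test cannot go below p = 0.1. Their sizes depended in part on APB5 replicate 3. It had the lowest APB5 values of *Siglech* (−3.73, against −1.78 and −1.10), *Csf1r* (1.08, against 1.68 and 1.68) and *Tmem119* (−1.02, against −0.90 and −0.71). It was also lowest for *P2ry12* (−3.45, against −1.04 and −1.10), *Sall1* (−3.19, against −1.69 and −0.70), *P2ry13* (−5.46, against −2.41 and −4.63) and *Gpr34* (−4.82, against −3.12 and −3.51). For *P2ry12*, APB5 replicates 1 and 2 lay within the APB5+Mino range of −1.96 to −0.36. Those of *Sall1* and *P2ry13* lay on both sides of the APB5+Mino range, so these differences rested on APB5 replicate 3. *Cx3cr1* was instead lower in APB5+Mino than in APB5 by 1.46 relative to the list. Its relative values were −0.07, 0.12 and −1.11 in APB5 and from −2.32 to −1.11 in APB5+Mino, so that the replicate 3 libraries of both groups were alike. Compared with IgG+Mino, whose relative values were −0.22, 0.31 and −0.28, *Cx3cr1* in APB5+Mino was lower by 1.75 without overlap. The other members differed from IgG+Mino by −0.72 to 0.23, with overlap. In APB5 against IgG, *Siglech* (−1.94), *Gpr34* (−1.88), *P2ry12* (−1.43), *Tmem119* (−0.60) and *Csf1r* (−0.57) were lower relative to the list in every library, and *Aif1* (−0.04) was not.

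**Figure D4:**
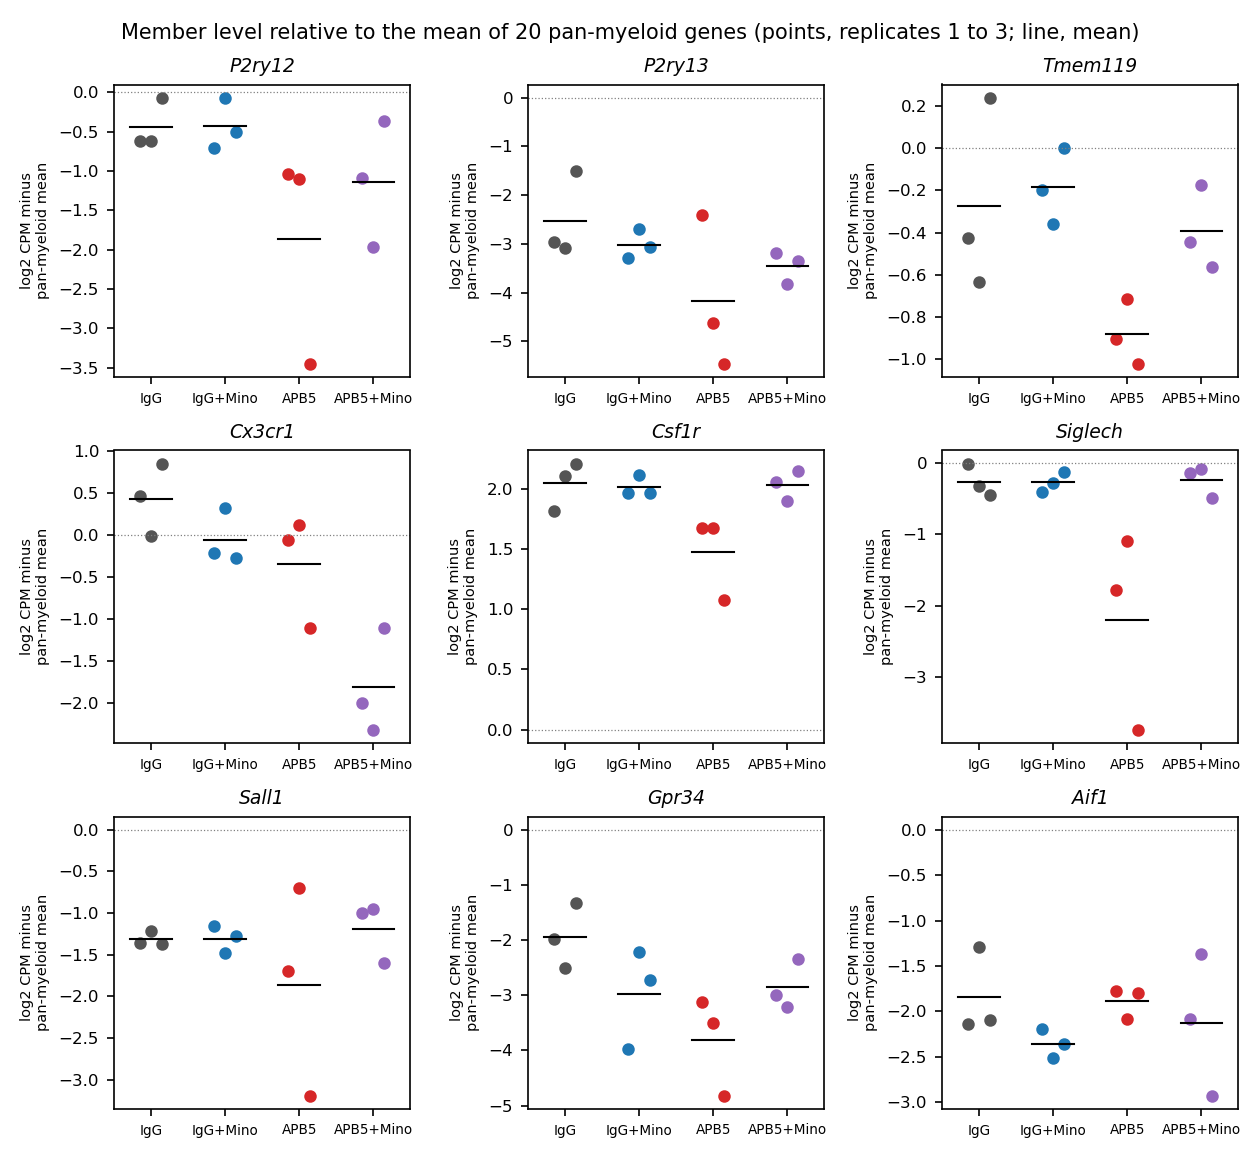
Log2 CPM of each member minus the mean log2 CPM of 20 pan-myeloid genes in the same library (y axis, scaled separately per gene), by group, with a line at the mean. The means of *Siglech*, *Csf1r*, *Tmem119*, *P2ry12*, *P2ry13*, *Sall1* and *Gpr34* are lowest in APB5, where replicate 3 has the lowest value of each. That of *Aif1* is lowest in IgG+Mino. *Cx3cr1* is lowest in APB5+Mino, at −2.32 to −1.11.

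The share that *Cx3cr1* held of the summed CPM of the 9 members does not depend on another list. It was 3.03%, 2.46% and 5.71% in APB5+Mino and 9.99% to 16.9% in the other 9 libraries, with no overlap. Unlike the values relative to the pan-myeloid list, the shares of the replicate 3 libraries differed, at 12.5% in APB5 and 5.71% in APB5+Mino. The share of *Csf1r* ranged from 43.2% to 58.5% over the 12 libraries. The sum itself was 15.7 to 29.7 CPM in IgG, 10.8 to 15.2 CPM in IgG+Mino, 18.0 to 70.0 CPM in APB5 and 7.14 to 8.57 CPM in APB5+Mino.

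Other genes of microglial identity and of the members' pathways were read from lists. Of 18 further homeostatic genes, 17 were tested in APB5+Mino against APB5, 16 were lower, and 3 were called: *Fcrls*, *Slco2b1* and *Rnase4*. *Fcrls*, an Fc receptor-like gene specific to microglia, had 117, 152 and 1496 counts in APB5 and 11, 11 and 12 counts in APB5+Mino (log2 fold change −5.23 ± 1.10, adjusted p = 0.0476, edgeR). *Slco2b1*, an organic anion transporter, had a log2 fold change of −1.76 ± 0.29 (adjusted p = 0.0447, edgeR). With the replicate block none of these calls, nor any other in this comparison, was kept. In IgG+Mino against IgG, 0 of 17 were called and 14 were lower, with a median of −0.45. In APB5+Mino against IgG+Mino, *Fcrls* was again called (−1.92 ± 0.33, adjusted p = 0.0150, edgeR).

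Transcription factors of microglia were called in none of these comparisons. Of 12, 9 were lower in APB5+Mino than in APB5, among them *Spi1*, which encodes PU.1 (−2.79 ± 0.99, adjusted p = 0.0886, edgeR), and its partner *Irf8* (−1.76 ± 0.58, adjusted p = 0.0812).

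Among 16 genes of the ligands and the TGF-β pathway that sustains homeostatic microglia, 1 was called lower in APB5+Mino against APB5, *Entpd1*, the ectonucleotidase CD39 that degrades ATP and ADP (−1.46 ± 0.28, adjusted p = 0.0461, edgeR). *Cx3cl1*, the ligand of CX3CR1, measured 130, 105 and 199 CPM in APB5 and 113, 111 and 111 CPM in APB5+Mino (−0.38 ± 0.23, adjusted p = 0.263). The CSF1R ligands *Il34* (−1.37 ± 0.50, adjusted p = 0.103) and *Csf1* (−0.95 ± 0.43, adjusted p = 0.156) were lower but not called. *Tgfb1* had −1.95 ± 0.72 (adjusted p = 0.106) and its receptor *Tgfbr1* 0.11 ± 0.12 (adjusted p = 0.508).

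Disease-associated microglia genes, which reactive microglia increase, were lower in 17 of 18 tested in APB5+Mino against APB5, with a median of −1.78 and 0 called. *Trem2*, a lipid receptor, had 139, 128 and 1377 counts in APB5 and 33, 26 and 30 counts in APB5+Mino (−3.88 ± 0.96, adjusted p = 0.0535, edgeR). *Apoe* had −2.57 ± 0.61 (adjusted p = 0.0522). *Cst7* had 6, 0 and 44 counts in APB5 and 0 counts in all APB5+Mino libraries.

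Markers of other cell types moved with some of these results, and their part in them was not tested. Of 14 monocyte and border macrophage genes, 7 were tested in APB5+Mino against APB5 and 6 were lower, with 0 called; the summed level was 20.7 to 53.2 CPM in APB5 and 15.5 to 16.3 CPM in APB5+Mino. *Ccr2*, the defining receptor of blood monocytes, had 40 counts in APB5 replicate 3, 4 in IgG replicate 3 and 0 in the other 10 libraries. *Ms4a7* had 30, 18 and 533 counts in APB5 and 0, 2 and 0 counts in APB5+Mino. *Mrc1* had 24, 43 and 190 counts in APB5 and 8 in each APB5+Mino library. In IgG against IgG+Mino, *Mrc1* had 27, 53 and 51 against 2, 5 and 18 counts.

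For *Siglech*, the 5 plasmacytoid dendritic cell genes summed to 0.193 to 0.333 CPM in IgG and 0.379 to 4.39 CPM in APB5, with *Klk1* and *Cd209d* at 0 in both groups. *P2ry12* is also a platelet gene, and the 6 platelet genes summed to 25.2 to 48.8 CPM in APB5 and 19.5 to 23.0 CPM in APB5+Mino. Most of this sum was *Gp1bb*, whose level was 30.7 ± 10.2 CPM in APB5 against 19.6 ± 1.69 CPM with minocycline (SD, n = 3), and 3 of the 6 genes (*Gp9*, *Ppbp* and *Gp6*) had at most 3 counts in any library. Endothelial genes were lower in all 10 tested in APB5+Mino against APB5, with *Cldn5* (−1.68 ± 0.16, adjusted p = 0.0417, edgeR) and *Tie1* (−1.50 ± 0.28, adjusted p = 0.0461) called. In Müller glia and astrocytes *S100b* (−1.29 ± 0.25, adjusted p = 0.0461) was called, and 9 of 10 were lower. Of 10 rod genes, 8 were higher, with a median of 0.20 and 0 called. Red blood cell genes had a median of 0.06 over 5, with 0 called. Lens and pigment epithelium genes had a median of −0.52 over 12, with 8 lower, 4 higher and 0 called, and their members differed. The pigment genes *Mlana* (−4.29 ± 1.13, adjusted p = 0.0574, edgeR) and *Pmel* (−2.32 ± 0.66, adjusted p = 0.0663) were lower without overlap, and their part in the results for the microglia genes was not tested. *Mlana* had 185, 75 and 1412 counts in APB5 and 11, 17 and 38 counts in APB5+Mino. *Tyr* (−3.15 ± 1.11), *Rgr* (−1.68 ± 0.82) and *Rpe65* (−1.60 ± 0.71) were lower with overlap. The lens genes *Cryaa*, *Cryba1*, *Crygs* and *Bfsp1* had log2 fold changes of 0.23 to 0.57, and the lens gene *Mip* had −0.20. Each of these lens values was smaller than its standard error.

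Across the 12 libraries the members followed one another. The correlation of log2 CPM of each member with the mean of the other 8 was 0.93 for *Cx3cr1*, 0.91 for *Csf1r*, 0.88 for *Tmem119*, 0.84 for *Gpr34*, 0.80 for *P2ry12*, 0.79 for *Sall1*, 0.78 for *P2ry13*, 0.76 for *Aif1* and 0.58 for *Siglech*. These are descriptions, since libraries share group, sex and depth. Without APB5 replicate 3 they were 0.67 to 0.96. Of 15807 other genes with a mean of at least 1 CPM, those with a pattern most like the members' mean included *Kctd14* (r = 0.98), *Slc2a1* (0.96), *Ptn* (0.96), *Arhgdib* (0.95), *Tmem51* (0.95), *Tmem254a* (0.95) and *Gng11* (0.95). Without APB5 replicate 3 the correlations of these 7 were 0.93 to 0.96.

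The authors also deposited group means per transcript, which carry no spread between libraries. For *Aif1*, 2 transcripts had a value in the table of APB5 and APB5+Mino, and their means were 94.4 and 42.7 normalized counts in APB5 and 2.05 and 10.9 in APB5+Mino. The main *P2ry12* transcript of the IgG groups had 85.8 in IgG and 64.9 in IgG+Mino, and the same transcript had 47.4 in APB5 and 13.3 in APB5+Mino, from tables that were normalized separately.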

How the data were processed

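Poly-A RNA of 12 retina samples was sequenced by the authors from strand-specific libraries, and bcl2fastq 2.20 and the DRAGEN RNA pipeline with the mm39 genome and its NCBI annotation made the tables, per the labels and the methods of the study. The DRAGEN version and the use of strand in counting are not given in the sources used here. The deposited gene table holds raw counts of reads per gene, with no normalization; the repeated columns in it were identical and each library was used once. The deposited transcript tables give, as a signal, the authors' mean normalized count of a group. Their fold change and p-value columns were not used.

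The study gives 3 mice per group; neither the labels nor the methods say how litters were divided, so p-values measure the spread between these libraries. Counts were analysed in R 4.3.3 with edgeR 4.0.16 (filterByExpr, TMM, prior count 2, quasi-likelihood test, Benjamini-Hochberg adjustment over all genes tested, two-sided); only the 2 groups compared entered a fit, except for the interaction. CPM are edgeR values with TMM factors. Replicates differed by more than sampling noise in all groups. The scripts were tested on simulated counts. DESeq2 1.42.0 and limma 3.58.1 (voom with quality weights) were alternatives.

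The members and gene lists were chosen with earlier results of these data known, so no test was run over a list. Named genes were the 9 members, 20 set list genes, Pdgfrb, Xist and 4 Y-linked genes, up to 2 called genes per direction and list with the smallest p, and the 8 genes most like the members; *Rnase4* and the platelet, dendritic cell, pigment and lens genes, outside this rule, were named after their values were seen. Some genes under the rule are not reported here. For APB5+Mino against APB5, deviations from group means correlated by 0.134 to 0.182 between libraries of the same replicate number and by −0.157 to 0.019 between different numbers. Deviations within a group sum to 0, which by itself lowers the values between different numbers. The block was therefore run as if the numbers paired these libraries, and pairing itself was not tested. In the other comparisons at least 1 of 3 same-number correlations was under 0.1. What the numbers mark is not stated. Coordinates and promoters are from GRCm39, the assembly of mm39, with GENCODE annotation. Other alternatives were RLE scaling, library size only, a filter of 10 counts in each library or none, 1 fit to the 12 libraries, the replicate block, *Xist* as a covariate, libraries of 1 *Xist* level, no fold threshold, unadjusted p and each library left out.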

Additional observations from a re-analysis of the deposited data

How the results depend on the processing

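In APB5+Mino against APB5 the 8 tested members kept a negative log2 fold change under every alternative in which they were tested, but the number called moved from 1 to 0 with library size only and with the replicate block (paired fit), to 2 with no count filter, to 3 within *Xist*-low libraries, to 6 with DESeq2, voom, all 12 libraries or the *Xist* covariate, to 7 at unadjusted p, and to 0 to 6 when each library was left out. The members' median moved from −1.88 to −1.20 with voom, −1.17 within *Xist*-low libraries, and −2.25 to −1.13 with a library left out. Over all genes, 336 were called, against 0 with the block, 5 with library size only, 1531 with DESeq2 and 1433 with voom. With at least 10 counts in every library *Cx3cr1* was removed by the filter, and *Sall1* was called in its place (adjusted p = 0.0462, edgeR).

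In IgG+Mino against IgG, 4 members were called at unadjusted p, and the median was 0.033 with the *Xist* covariate, which reversed *Aif1* (0.26), *Csf1r* (0.55), *Cx3cr1* (0.14), *P2ry12* (0.033) and *Tmem119* (0.71). In APB5 against IgG, 1 member was called with the *Xist* covariate and 3 within *Xist*-high libraries, where APB5 is replicate 3 alone and is assumed to vary like IgG; the median was −0.37 to 0.82 with a library left out. Reversed there were *P2ry12* (0.13 with the *Xist* covariate) and *P2ry13* (0.076 with voom), both also without IgG replicate 3. Their ranges with a library left out were −0.51 to 0.061 and −0.88 to 0.47. Without APB5 replicate 3, *Csf1r* (−0.15 to 1.31), *Cx3cr1* (−0.22 to 0.94) and *Tmem119* (−0.37 to 1.49) were reversed. That fit left no *Xist*-high APB5 library, whereas all IgG libraries were *Xist*-high. In APB5+Mino against IgG+Mino the call was lost (0) with at least 10 counts, all 12 libraries, the *Xist* covariate or 1 *Xist* level, was 2 at unadjusted p and 0 to 2 with a library left out; the median was −0.97 with the *Xist* covariate, and *Aif1* reversed without APB5+Mino replicate 3 (−0.59 to 0.10). For the interaction, 1 member was called with DESeq2 and with voom, 2 with the *Xist* covariate and 2 at unadjusted p, the median was −1.44 to −0.39 with a library left out, and *Gpr34* reversed with the *Xist* covariate (−0.80) and with 5 of the 12 libraries left out in turn (−0.45 to 0.63). The cause was not tested. The replicate block changed no other call. *P2ry13*, *Gpr34* and *Aif1* had under 20 counts in several libraries, which limits their precision.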
